A study of Homo sapiens with 4 samples.

Results

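HSC3 is an established squamous cell carcinoma line derived from human tongue. RNA of HSC3 cells transfected with miR-504 was labelled with Cy5 and RNA of HSC3 cells transfected with a control miRNA with Cy3, 72 h after transfection, and both were hybridised to 1 Agilent oligo-microarray. The array was taken by its labels and is 1 of 4 in the series. The other 3 were made in the same way for HSC3 cells transfected with miR-489 and for FaDu cells, a line of hypopharyngeal squamous cell carcinoma, transfected with miR-504 or miR-489. The miRNAs were synthetic precursors delivered by lipofection, and every control was the same line with a negative control miRNA. The question put to the array, by its title, was which genes miR-504 targets in this line.

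miRNAs guide a silencing complex to messenger RNAs, most often through pairing of the seed, the bases near the 5′ end, with sites in the target. Messages bound in this way are translated less and are commonly degraded, so direct targets are looked for among the genes that are lower in the transfectants, together with genes that change further downstream. miR-504 has been described as a repressor of CDK6 and FOXP1, among others, and its gene lies within the span of FGF13 on the X chromosome.

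The mature sequences are shown because the seed is the part that any direct target would pair with. They are given 5′ to 3′ as RefSeq holds them for GRCh38.p14, with the seed, bases 2 to 8, in capitals. The labels name miR-504 without an arm, and both arms are shown, with hsa-miR-489-3p of the other transfectants for comparison.
hsa-miR-504-5p: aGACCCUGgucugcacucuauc
hsa-miR-504-3p: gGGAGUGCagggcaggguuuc
hsa-miR-4725-5p: aGACCCUGcagccuucccacc
hsa-miR-489-3p: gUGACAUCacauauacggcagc
hsa-miR-504-5p lies at chrX:138667760-138667781 on the minus strand and has 22 bases. Of 2545 mature human entries, 2 carried its seed, the second being hsa-miR-4725-5p at chr17:31575281-31575301 on the plus strand. The seeds of hsa-miR-504-3p and hsa-miR-489-3p each occurred in 1 entry, their own. Neither arm of miR-504 thus shares a seed with hsa-miR-489-3p.

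Each value below is the log2 ratio of Cy5 over Cy3 of background-subtracted median signals, centred on the median of spots well above background in both channels, and is negative for a gene with less RNA after miR-504. The array held 41000 probes for 30988 genes and transcripts, of which 18800 were measured, that is, well above background in at least 1 channel, and 17418 in both. Over 207 probes with at least 5 spots the SD of the log2 ratio between spots of the same probe was 0.0972, which covers technical error within the array only. There was 1 array per condition, without a dye swap, so no value has a biological replicate or a test, and a dye effect of a probe cannot be told apart from an effect of miR-504. All 4 arrays were on the same slide and read in the same scan. The Cy3 signals of the same control line on the 2 HSC3 arrays differed with an SD of 0.40 on the log2 scale.

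The labelled cell type was checked against marker genes. All 9 squamous epithelial markers found on the array were measured in both channels, among them KRT5, KRT14 and KRT17, keratins of stratified epithelium, TP63, the master regulator of that lineage, and the desmosomal gene DSG3. Of 20 markers of 5 other cell types, 7 were measured, namely CD79A (946 and 952) and CD14 of leukocytes, COL1A1 and DCN of fibroblasts, PMEL (318.5 and 159.5) of melanocytes, and, in Cy5 alone, VWF of endothelium and ACTA1 of muscle. PTPRC of leukocytes, PECAM1 and CDH5 of endothelium, COL1A2 and COL3A1 of fibroblasts and DES of muscle were not well above background in either channel.

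After miR-504, 898 of 17571 genes (5.11%) were at least 2-fold lower and 367 of 18647 genes (1.97%) at least 2-fold higher. Lower genes thus made up 71.0% of the genes that passed 2-fold. Of the lower genes, 149 had no Cy5 signal well above background, and their values are ratios of dim signals or bounds. At 4-fold, 89 genes were lower and 4 higher. The median of all measured genes was −0.05, and the quartiles of the genes measured in both channels were −0.37 and 0.32. The median depended on signal, from −0.34 in the lowest signal quartile of the genes measured in both channels to 0.033, 0.11 and 0.14 in the next ones, and the excess of lower genes was smaller among brighter ones. Among the genes above the median signal 462 were lower and 363 higher (56.0% lower). With a normexp background correction, which damps the ratios of dim spots, 295 genes were lower and 268 higher (52.4% lower).

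**Figure D1:**
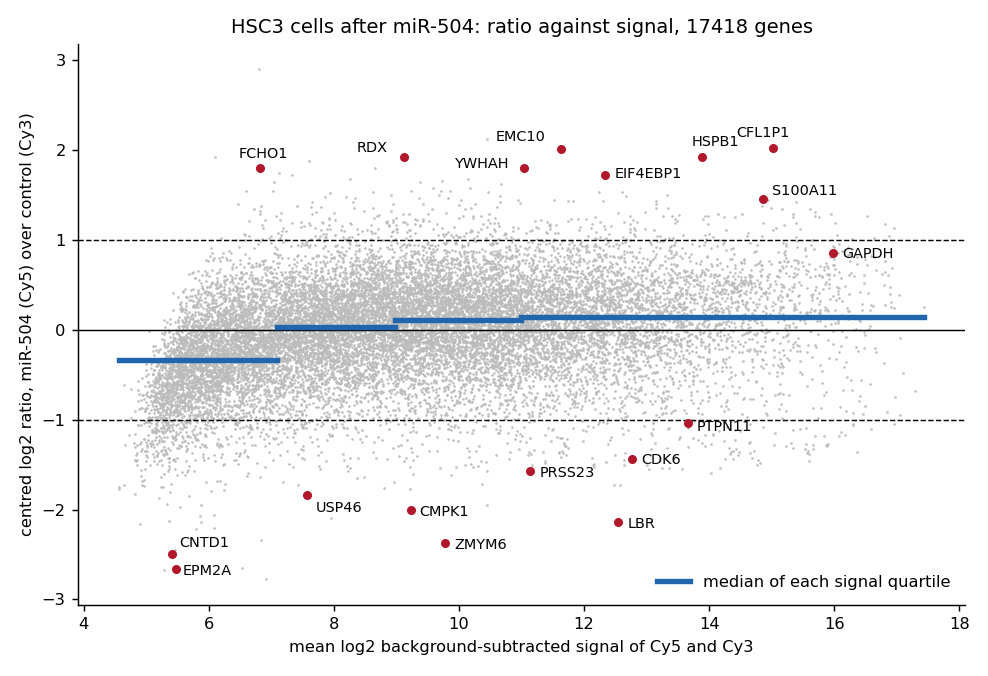
Centred log2 ratio of miR-504 over control in HSC3 cells (y axis) against the mean log2 background-subtracted signal of both channels (x axis) for 17418 genes, with 18 named genes in red, dashed lines at 2-fold and blue bars at the median of each signal quartile. The medians run from −0.34 at the dim end to 0.14 at the bright end, and LBR, ZMYM6 and CMPK1 lie far below the cloud at moderate or high signal.

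Among the 12 largest falls measured in both channels of genes with a symbol in the reference, 3 had signals far above background. LBR, the lamin B receptor of the inner nuclear membrane that also reduces sterols, had a Cy5 signal of 3327 and a Cy3 signal of 10781, a log2 ratio of −2.14. ZMYM6, a zinc finger gene, had signals of 450 and 1713 (−2.37), and CMPK1, the pyrimidine nucleotide kinase, signals of 349 and 1029 (−2.01). All 3 were also at least 2-fold lower in FaDu cells after miR-504, with log2 ratios of −1.89 for LBR, −2.84 for ZMYM6 and −2.16 for CMPK1.

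After miR-489 the HSC3 values of these genes were −1.17, −0.80 and −0.12, all above those after miR-504. The other probes of ZMYM6 did not repeat its value. The pair of them measured in both channels gave −0.20 and 0.55, so that the fall of ZMYM6 rested on a single probe. LBR and CMPK1 had 1 probe each.

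The remaining 9 of the 12 were dim. EPM2A, the glycogen phosphatase laforin, had the lowest value of these at −2.67, from a Cy5 signal of 20.5 and a Cy3 signal of 95.5. CNTD1 (−2.50), FRMD7 (−2.45), ADAM32 (−2.21), TCP11 (−2.20), ADORA3 (−2.14), SPMIP9 (−2.12), AKAP7 (−2.06) and TDRD10 (−1.97) had Cy3 signals between 73.5 and 125. With normexp these 9 values lay between −1.22 and −0.92, whereas ZMYM6, LBR and CMPK1 kept −2.21, −2.11 and −1.82. AKAP7, an anchoring protein of protein kinase A, was also measured in both channels on the other arrays, with −0.57 in HSC3 cells after miR-489, −1.07 in FaDu cells after miR-504 and −0.54 in FaDu cells after miR-489.

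The 12 largest rises were mostly bright. HSPB1, the small heat shock protein, had a Cy5 signal of 34511.7 and a Cy3 signal of 6687.5 (1.92), and its other probes gave 1.80 and 1.80. EMC10, a subunit of the membrane protein insertion complex of the endoplasmic reticulum, was at 2.01 (7414.5 and 1346.5). CFL1P1, a cofilin 1 pseudogene, was highest with 2.03, and its probe may also take up RNA of the near-identical cofilin genes. RDX (radixin, a linker of actin to the membrane) was at 1.92, YWHAH (a 14-3-3 protein) at 1.80 and EIF4EBP1, which binds the cap-binding protein eIF4E and represses translation, at 1.73.

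SELENOM (1.79), ELOVL7 (1.72), TBL3 (1.68), SLC41A1 (1.67) and MIB2 (1.65) completed the group with FCHO1 (1.80). The Cy3 signals of FCHO1 (52) and ELOVL7 (76) were dim, and with normexp these 2 genes were at 1.18 and 1.26. Apart from FCHO1 and from CFL1P1 on the FaDu miR-489 array, where its spot was marked as an outlier and left out, the genes of the group were at least 2-fold higher on every one of the 4 arrays. EMC10 was at 2.20 in HSC3 cells after miR-489 and at 2.41 and 2.39 in FaDu cells after miR-504 and miR-489. The rises were thus measured with both miRNAs and in both lines, with the transfectants in Cy5 on every array, and a dye effect of these probes was not tested.

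**Figure D2:**
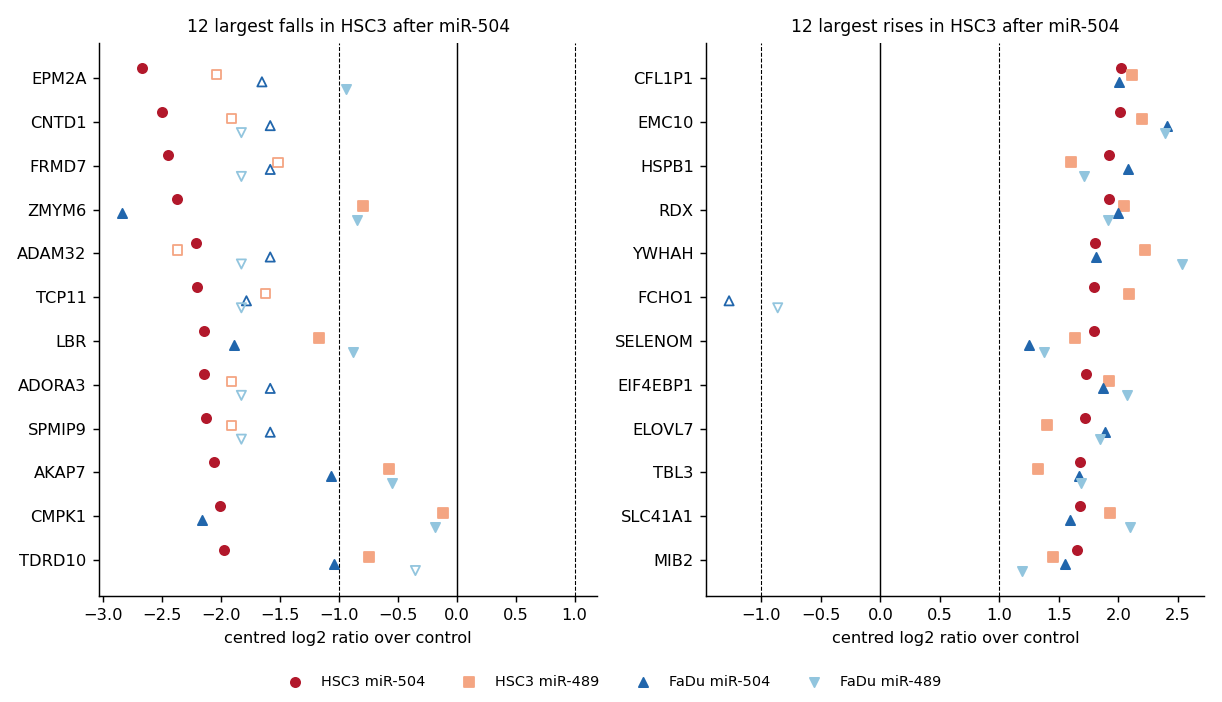
Centred log2 ratio over control (x axis) of the 12 largest falls and 12 largest rises in HSC3 cells after miR-504 on all 4 arrays, with open symbols where a channel was not well above background and dashed lines at 2-fold. Most rises repeat on all arrays, whereas the falls of CMPK1 and ZMYM6 are larger after miR-504 than after miR-489 in both lines.

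A second probe of the same gene gave a check within the array that the signal of 1 probe cannot. For 4470 genes a pair of probes was measured in both channels, and across these genes the ratios of the brightest and the next probe correlated with r = 0.32. Genes are not independent replicates, and probes of 1 gene can report different transcripts. Of 110 genes at least 2-fold lower by the brightest probe, the other probe was below 0 in 77 and at least 2-fold lower in 20. Of 91 genes at least 2-fold higher, the other probe was above 0 in 68 and at least 2-fold higher in 20. Over all such genes 49.3% of the other probes were below 0.

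The largest falls by the probe of least change were those of USP46, PRSS23, CYP4F2 and TDRD10. USP46, a deubiquitinating enzyme, had probes at −1.84 and −1.93, with signals of 117 and 308 on the brighter one. PRSS23, a secreted serine protease, had probes at −1.57 (1529 and 3342) and −1.68. For CYP4F2, a fatty acid hydroxylase, the probes measured in both channels were at −1.52 and −1.66.

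L3MBTL3 (−1.44 and −1.92), a reader of methylated lysine, KLHDC3 (−1.20 and −1.35), OMA1 (−1.19 and −1.39), the stress protease of the inner mitochondrial membrane, and FKBP5 (−1.31 and −1.15), a chaperone of steroid receptors, followed. The brighter probes of KLHDC3 (signals of 100 and 169) and FKBP5 (46 and 83.5) were dim. With normexp KLHDC3 was at −0.84 and FKBP5 at −0.70, whereas L3MBTL3 was at −1.10 and OMA1 at −1.04. After miR-489 in HSC3 cells the brighter probes of USP46 and PRSS23 were at −0.15 and 0.14, whereas that of CYP4F2 was at −1.54. In FaDu cells after miR-504 these 3 genes were at −2.05, −1.76 and −1.61.

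The rises that several probes shared were those of HSPB1, S100A11 (1.45 and 1.67), a calcium-binding protein, SPOPL (1.52 and 1.19), an adaptor of a ubiquitin ligase, RPS15 (1.27 and 1.15) and PRDX5 (1.06 and 1.03), a peroxidase. STAT3, the transcription factor of cytokine signalling, had 3 probes measured in both channels at 1.29, 1.15 and 1.85, the first of them over 10 spots with an SD of 0.09. RPLP0, a ribosomal stalk protein, had 3 at 1.18, 1.58 and 1.10, and the locus PEDS1-UBE2V1 had 4 between 1.09 and 1.63. By the brightest probe these genes were at least 2-fold higher on the other 3 arrays as well, except for PRDX5, which was at 0.999 in FaDu cells after miR-504.

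**Figure D3:**
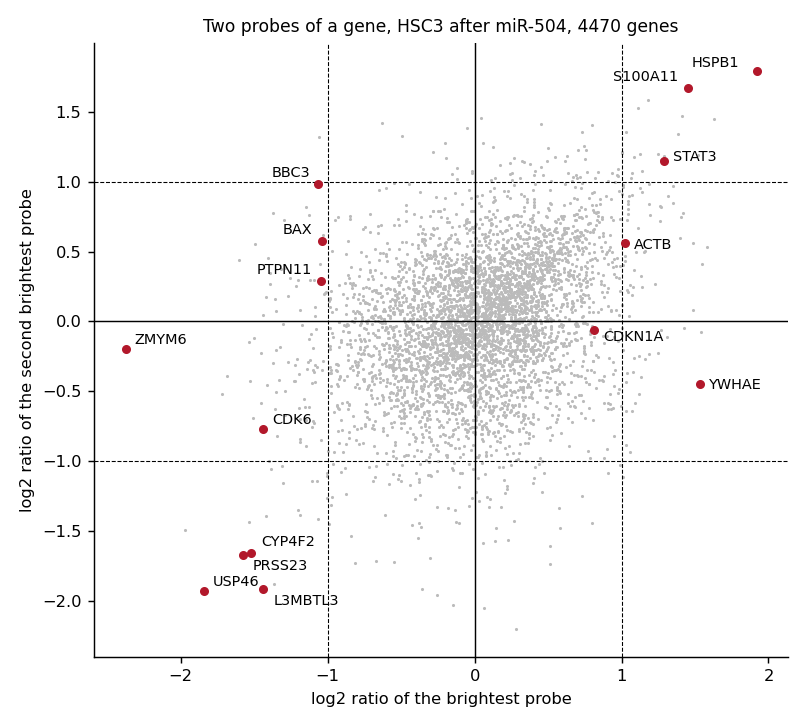
Log2 ratio of the next brightest probe (y axis) against that of the brightest probe (x axis) for 4470 genes on the HSC3 miR-504 array, with 15 named genes in red and dashed lines at 2-fold. USP46, PRSS23, CYP4F2, L3MBTL3, HSPB1, S100A11 and STAT3 lie beyond 2-fold on both axes, whereas the probes of PTPN11, BAX, BBC3 and YWHAE fall on opposite sides of 0.

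The miR-489 transfectants of the same line give a comparison in which a dye effect that is equal on both arrays drops out of the difference. The difference was calculated as the log2 ratio after miR-504 minus that after miR-489, and 108 of 16832 genes (0.642%) were at least 2-fold lower after miR-504 than after miR-489, and 303 of 16859 genes (1.8%) at least 2-fold higher. Over the 16804 genes measured in both channels on both arrays its SD was 0.36. A difference alone does not say which miRNA moved a gene, so the values of each array are given as well.

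Of the named genes with the 10 lowest differences, 8 were at least 2-fold lower after miR-504 and less than 2-fold from control after miR-489. For CMPK1 the HSC3 values were −2.01 after miR-504 and −0.12 after miR-489, a difference of −1.89. For PRSS23 the difference was −1.71, for USP46 −1.69 and for ZMYM6 −1.58. CUTC, named for a part in copper handling, had −1.24 after miR-504 and 0.36 after miR-489. COPZ1, the zeta subunit of the coatomer of transport vesicles, had −1.33 and 0.20, and its other probe −0.42 and 0.82.

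H3-5, a histone H3 gene, had −1.15 and 0.44. Its sequence is close to that of other histone H3 genes, and its probe may take up their RNA. For AKAP7 the difference was −1.48. The remaining pair did not pass 2-fold after miR-504, since ALDH9A1, an aldehyde dehydrogenase, was at −0.39 after miR-504 and 1.27 after miR-489, and SLC10A7, a membrane transporter, at −0.96 and 0.95.

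The 10 highest differences came mostly from genes that were low after miR-489. PTPN11, the phosphatase SHP2 and the gene that the study followed, was at −1.04 after miR-504 and −3.22 after miR-489. FAM117B (−0.85 and −3.42), KLHL5 (0.39 and −2.02), AHNAK (−0.05 and −2.25), a giant scaffold protein, NF2 (−0.07 and −2.15), the tumour suppressor merlin, OBSL1 (−0.53 and −2.64) and A2ML1 (−0.67 and −2.77), a protease inhibitor of differentiating keratinocytes, were at least 4-fold below control after miR-489 and within 2-fold of it after miR-504. The value of NF2 rested on 1 probe, since its other probes were at 0.02, 0.14 and 0.20 after miR-489, and 1 of the 5 probes of AHNAK was at 1.57. CTSZ, a lysosomal cathepsin, had the largest of these differences, 3.16, from 1.46 after miR-504 and −1.70 after miR-489. MRM1 was at 0.81 and −1.33, and CSF3, a growth factor of granulocytes, at 0.40 and −1.68 with a Cy3 signal of 42.5.

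The probes of PTPN11 did not agree on the miR-504 array. The brightest gave −1.04 (10501.5 and 15874), the next 0.29 ± 0.05 (SD, 10 spots, 5962 and 3582.15), and a dim pair −1.36 and −1.41. After miR-489 in HSC3 cells the first 2 probes were both lower, at −3.22 and −1.38. The difference between the miRNAs was 2.18 by the first probe and 1.67 by the second.

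The same difference was taken in FaDu cells, whose RNA had no part in choosing these genes. Of the 108 genes, 89 could be measured there, 82 had the same sign, and 44 were at least 2-fold lower after miR-504 than after miR-489. Of all 15640 genes measurable in both lines 0.997% passed this limit in FaDu cells and 52.7% had that sign. The median FaDu difference of the 89 genes was −0.99, against −1.20 in HSC3 cells. Of the 303 higher genes, 255 could be measured, 239 had the same sign and 121 passed 2-fold, where 2.26% of 15676 genes did so in all. Across 15609 genes measured in both channels on all arrays the differences of the lines correlated with r = 0.55.

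CMPK1 had a FaDu difference of −1.98, USP46 −1.98, ZMYM6 −1.99, PRSS23 −1.76, CUTC −1.67, COPZ1 −1.67 and H3-5 −1.58, all close to the HSC3 values. AKAP7 differed by −0.52 in FaDu cells against −1.48 in HSC3 cells, and A2ML1 by 0.13 against 2.11.

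**Figure D4:**
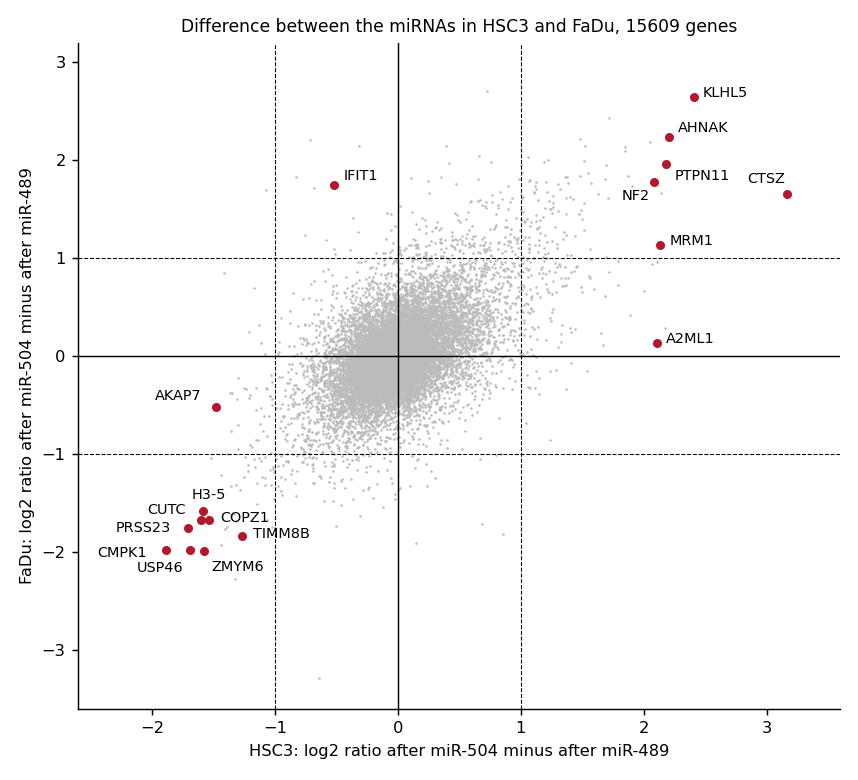
Log2 ratio after miR-504 minus that after miR-489 in HSC3 cells (x axis) and in FaDu cells (y axis) for 15609 genes measured in both channels on all 4 arrays, with dashed lines at 2-fold. CMPK1, PRSS23, USP46, ZMYM6, CUTC, COPZ1, H3-5 and TIMM8B lie below 2-fold in both lines, and KLHL5, AHNAK, PTPN11, NF2, MRM1 and CTSZ above it, whereas A2ML1, AKAP7 and IFIT1 differ between the lines.

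In HSC3 cells, 43 of 16832 genes (0.255%) were both at least 2-fold lower after miR-504 and at least 2-fold below their value after miR-489. Of these, 33 could be measured in FaDu cells and 14 passed both limits there as well, compared with 0.441% of 15640 genes in all. The 14 were 11 named genes and 3 transcripts without a symbol in the reference. They included ZMYM6, CMPK1, USP46, PRSS23, COPZ1, CUTC and H3-5.

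The other 4 were named after their values had been seen. TIMM8B, an import chaperone of the mitochondrial intermembrane space, had signals of 3904 and 9451 and was at −1.72 after miR-504 and −0.45 after miR-489 in HSC3 cells, and at −2.19 and −0.35 in FaDu cells. TAX1BP1, a receptor of selective autophagy, had signals of 8408 and 13182 and the values −1.10, 0.07, −1.10 and 0.04 in the same order. LGMN, a lysosomal protease, had −1.10, 0.33, −1.71 and 0.22, and SBDS, a ribosome maturation factor, −1.002, 0.03, −1.21 and 0.10. In all 4 genes both values after miR-504 lay below both values after miR-489, which largely follows from the limits by which they were chosen.

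The HSC3 and FaDu miR-504 arrays share no RNA, but they share the miRNA, the dye layout, the slide and the probes. Of the HSC3 lower genes that could be measured in FaDu cells, 435 of 664 (65.5%) were at least 2-fold lower there, which is 55.3% of the 787 FaDu genes, and 4.88% of all such genes were lower in FaDu cells. Of the higher genes, 256 of 361 (70.9%) were at least 2-fold higher in FaDu cells, which is 59.1% of the 433 FaDu genes, against 2.50% of all. Across 16017 genes the ratios of the lines correlated with r = 0.88, and their difference had an SD of 0.26.

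CDK6 and FOXP1, reported targets of miR-504, came out differently from each other. CDK6, a kinase that acts in the G1 phase with D-type cyclins, had signals of 4941 and 9829.5 and a log2 ratio of −1.44, and its other probe was at −0.77. CDK6 was however lower on every array, with −1.79 in HSC3 cells after miR-489 and −2.32 and −1.98 in FaDu cells after miR-504 and miR-489, so its HSC3 value after miR-504 was 0.35 above that after miR-489. FOXP1, a forkhead repressor, was at −0.10 and −0.33 by its probes, less than 2-fold from control.

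By the brightest probe none of 22 further genes of G1-S control, a list that does not hold CDK6, passed 2-fold in either direction (0 lower, 0 higher), beside 5.11% lower and 1.97% higher of all genes, and their median was −0.16. The lowest were E2F3 (−0.99) and CCNE1 (−0.99), which drive entry into S phase, CDKN2D (−0.93) and CCND2 (−0.76). RB1, the retinoblastoma protein, was at −0.68 ± 0.02 over 10 spots and at −0.19 after miR-489. CDKN1B, the inhibitor p27, was at −0.69 ± 0.07 over 9 spots in HSC3 cells and at −0.00 in FaDu cells after miR-504.

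At the other end CDK4, the partner kinase of CDK6, was at 0.94, CDKN1A, the inhibitor p21, at 0.81 ± 0.04 over 10 spots and −0.06 by its dimmer probe, CCNE2 at 0.48 and CDKN2B at 0.40. CCND1, a D-type cyclin, was at −0.02 ± 0.05 over 10 spots. CDKN2C, E2F2, CDK2, CDC25A, E2F1, CDKN1C, SKP2, RBL1, RBL2, CCND3 and CDKN2A lay between −0.43 and 0.28 by the brightest probe. The probes of CDKN2A, which encodes p16 and ARF, were at 0.28 and −0.65. DNA replication genes (36 measured) had a median of 0.15 and mitosis genes (32 measured) one of 0.09, and in neither list did a gene pass 2-fold (0 and 0). RRM2, the small subunit of ribonucleotide reductase, was highest of the former at 0.93, but another probe was at 0.08. RFC1, a clamp loader subunit, was lowest at −0.97, but another probe was at −0.08.

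A list of genes is described here by its counts and its median beside −0.05, the median of all genes. It is called shifted where the median lay at least 0.25 from 0, which 13 of 39 lists with 5 or more measured members did, all above 0. The number depended on the scaling, since of the 13 only 5 stayed that far from 0 with loess or the ratios of the scanner software and 2 with total signal scaling. Keratins and matrix metalloproteinases passed under each of these. The medians are to be read beside the 0.14 of the brightest quartile of the genes.

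**Figure D5:**
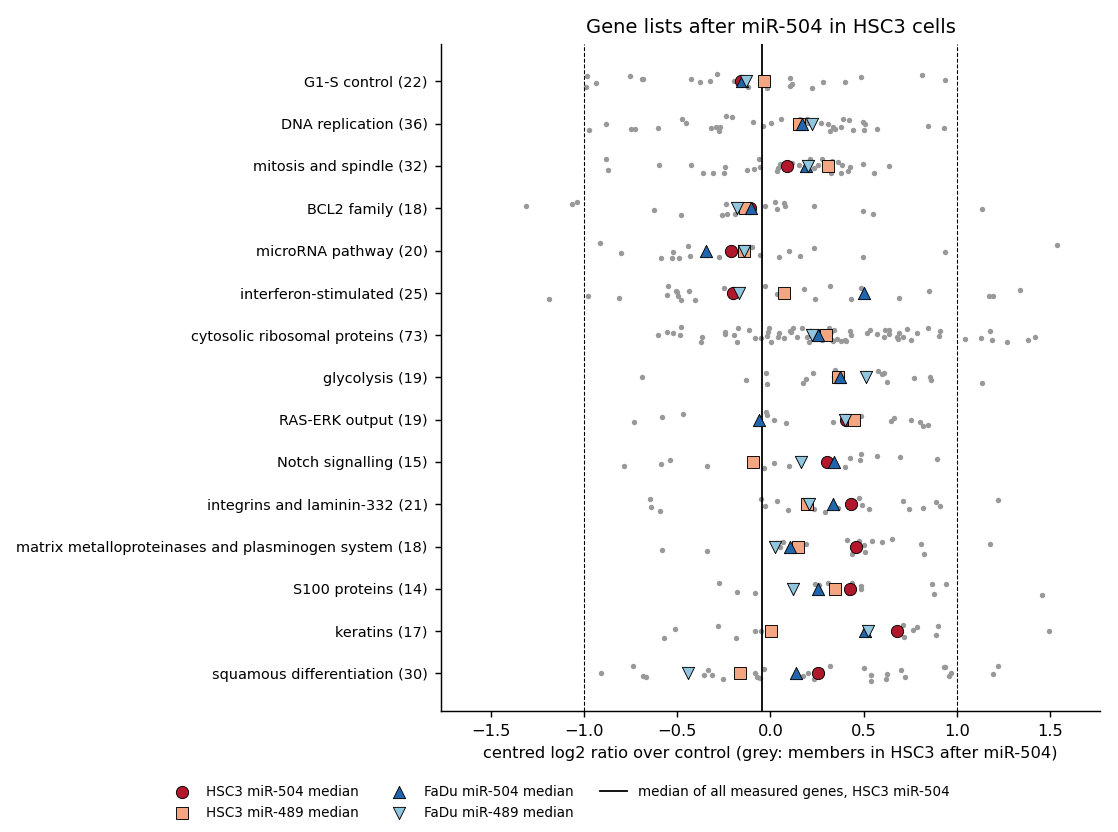
Centred log2 ratio over control (x axis) for 15 gene lists (y axis, number of measured members in brackets). Grey points are members in HSC3 cells after miR-504, coloured symbols are list medians on the 4 arrays, the solid line marks the median of all measured genes and dashed lines 2-fold. The keratin median is 0.68 in HSC3 cells after miR-504 and 0.00 after miR-489, with a median difference per gene of 0.12, whereas the ribosomal medians lie together between 0.22 and 0.30.

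Keratins, the intermediate filaments of epithelium, had the highest median, 0.68 over 17 genes. Of the 17, 11 were above 0, beside 46.4% of all measured genes. Only 1 was at least 2-fold higher, beside 1.97% of all genes, namely KRT80 with signals of 940 and 244.5. KRT17 was at 0.90, whereas KRT10 (−0.57), of differentiated cells, and KRT7 (−0.51) were lowest. The median was 0.00 in HSC3 cells after miR-489 and 0.51 in FaDu cells after miR-504, but the median difference per gene between the HSC3 arrays was only 0.12, with KRT17 at 0.71 and KRT80 at 1.72 after miR-489. Its range over the other ways of processing the signals was 0.34 to 0.78.

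Squamous differentiation genes (30 measured) had a median of 0.25 in HSC3 cells after miR-504 and −0.16 after miR-489. Of the 30, 22 were higher after miR-504 than after miR-489, beside 49.3% of all measured genes. Such counts, here and for other lists, did not require a signal well above background after miR-489. DSG1, for example, was not well above background in either channel there. GRHL3, a transcription factor of the epidermal barrier, was at 1.22 after miR-504 and −0.27 after miR-489, and LCN2, a siderophore-binding protein, at 1.19 and 0.90. TP63 was lowest of those measured in both channels at −0.74. In the S100 family (median 0.42 over 14 genes) S100A11 was at 1.45 and S100A7, psoriasin, at 0.94, and S100A12 was lowest at −0.28.

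Matrix metalloproteinases and the plasminogen system had a median of 0.46 over 18 genes, compared with 0.15 after miR-489 and 0.11 in FaDu cells after miR-504. Of the 18, 16 were above 0, beside 46.4% of all measured genes. MMP3, stromelysin 1, was at 1.18 with signals of 2357 and 764, and MMP1, interstitial collagenase, at 0.82. MMP14, the membrane-anchored protease, was lowest of those measured in both channels at −0.34. Integrins and laminin-332 had a median of 0.43 over 21 genes, with ITGA5, a subunit of the fibronectin receptor, at 1.22, PLEC, which ties integrins to keratins, at 0.91 (another probe at −1.09), and ITGB2 at −0.64.

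RAS-ERK output had a median of 0.41 over 19 genes and none passed 2-fold (0 lower, 0 higher). DUSP1 (0.84), a phosphatase of MAP kinases, and FOS (0.82) were highest, and EGR1 (−0.73) and DUSP6 (−0.58), the phosphatase that feeds back on ERK, were lowest. The list median was 0.45 after miR-489 and −0.06 in FaDu cells after miR-504. Notch signalling had a median of 0.31 over 15 genes, with ADAM17, a sheddase of surface proteins, at 0.90 and DLL1, a ligand, at 0.70. MAML1, the coactivator of Notch, was at −0.79.

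Cytosolic ribosomal proteins had a median of 0.27 over 73 genes, with 7 at least 2-fold higher and 0 lower, beside 1.97% and 5.11% of all genes, but the median was −0.06 with loess and −0.14 with the ratios of the scanner software, which both remove a dependence of the ratio on signal. RPL29 was at 1.38, and RPL23 (−0.61, with other probes at −0.04 and 0.06) and RPS29 (−0.55) were lowest. The medians of the other arrays, 0.30, 0.25 and 0.22, were about the same. Glycolysis had a median of 0.36 over 19 genes, with TPI1, triose phosphate isomerase, at 1.14, PGAM1 at 0.86 and ENO2 at −0.69. Translation factors (median 0.26 over 35 genes, but 0.063 with loess and 0.054 with the software's ratios) held EIF4EBP1 at 1.73 and the helicase EIF4A1 at 1.26, with EIF3H (−1.08) and EIF3A (−0.80), subunits of the same initiation complex, at the low end.

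Cholesterol synthesis had a median of 0.26 over 24 genes, with DHCR7 at 0.99 and SQLE, squalene epoxidase, at −0.50, and 20 of the 24 were lower after miR-504 than after miR-489 in HSC3 cells, beside 50.7% of all measured genes. MSMO1, a sterol oxidase, was at 0.88 after miR-504 and 1.66 after miR-489, with another probe at −0.39 after miR-504. The 7 genes of the 14-3-3 family, adaptors that bind phosphorylated proteins, ranged by the brightest probe from YWHAQ (−0.95) to YWHAH (1.80). The 3 other probes of YWHAQ went the other way, with 0.73, 0.65 and 0.70. All 7 genes had a lower ratio after miR-504 than after miR-489, beside 50.7% of all measured genes. For YWHAE, YWHAQ and YWHAZ the difference was less than the spread between spots. YWHAE was at 1.53 by its brightest probe, whereas its 4 other probes were between −0.56 and −0.33.

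The reference genes were not at 0. GAPDH, of glycolysis, was at 0.86 ± 0.04 (SD, 10 spots). The probes of ACTB, beta-actin, ranged from 1.02 down to 0.07 ± 0.01 (SD, 10 spots). Both genes were above 0 on all 4 arrays by the brightest probe, with GAPDH between 0.83 and 1.03.

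The lists without a shift held single genes beyond 2-fold. In the BCL2 family 3 of 18 genes were at least 2-fold lower, beside 5.11% of all genes, HRK (−1.31), BBC3 (−1.06) and BAX (−1.04), and BAD was at 1.14, all of them promoters of apoptosis. In BBC3 and BAX the next probe went the other way, with 0.99 for BBC3 and 0.57 ± 0.05 (SD, 10 spots) for BAX. By the brightest probe BBC3 was at −1.16 on the HSC3 miR-489, −1.24 on the FaDu miR-504 and −1.11 on the FaDu miR-489 array. In the same order BAX was at −1.03, −1.17 and −1.04 and BAD at 1.10, 0.99 and 1.07. HRK was at −1.16 and −1.26 in FaDu cells after miR-504 and miR-489. In the miRNA pathway (median −0.21 over 20 genes) TNRC6A, the GW182 scaffold of the silencing complex, was at 1.54, with 1.73, 1.83 and 2.06 on the other arrays, and DCP1A, a decapping factor, at −0.92. MRPL2, of the mitochondrial ribosome, was at 1.48, but its other probe, well above background in 1 channel, was at −0.61. NDUFB7 (1.31) and NDUFB11 (1.23), of complex I of the respiratory chain, were highest among 76 genes of oxidative phosphorylation, where ATP5PD was lowest at −0.83.

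Splicing factors held SNRPB (1.35), a core protein of the snRNPs, and HNRNPR (1.21). FRMD6 of the Hippo pathway was at 1.43, but its other probe at −0.05. CTNNB1, beta-catenin, was at 0.94, and NKD2, an antagonist of WNT, at −1.29. TGFB1 was at 1.23, BMP7 at −0.74, and LTBP1, a binding protein of latent TGF-beta, at −0.78. The signals of BMP7 (35 and 43) and LTBP1 (39 and 49) were dim, and with normexp these genes were at −0.33 and −0.37. PCGF3 of Polycomb was at −1.03 with another probe at 0.62, and GCLC, of glutathione synthesis, at −1.12 with another at 0.30.

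Of the cytokine genes (31 measured), PTGS2, which makes prostaglandins, was at 1.05 and IL32 at 0.95. CCL20 (−0.94) was lowest among those measured in both channels. Of the 31, 27 were higher after miR-504 than after miR-489, as were 49.3% of all measured genes. The 31 include genes such as CSF1 that were not well above background in either channel after miR-489. CLDN3, a tight junction protein, was at −1.23 in HSC3 cells after miR-504 and at −0.15 after miR-489. Its dimmer probe went the other way between the miRNAs, at −0.43 after miR-504 and −0.87 after miR-489. FN1, fibronectin, was at 0.86 after miR-504. Of the clustered histone genes (26 measured) 21 were lower after miR-504 than after miR-489, beside 50.7% of all measured genes. H4C5 (−1.21) and H2AC6 (−1.04) were at least 2-fold lower after miR-504. With normexp H4C5 was at −0.95, and H2AC6, with dim signals of 25.5 and 38.5, was at −0.40. CA9, of the hypoxia list, was at −1.07 from dim signals of 33 and 51, and at −0.48 with normexp.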

How the data were processed

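The authors transfected the cells with miRNA precursors, labelled the RNA by a two-colour amplification kit and read the arrays with Feature Extraction 9.5.3.1, as the file headers give it. The paper names a ScanArray scanner and DNASIS software instead, and the headers were followed here. The deposited scanner files hold spot and local background intensity per channel, with marks for spots above background, and a log10 ratio that the software detrended and normalised by lowess. The deposited value table holds the same log10 ratios. Local background medians were subtracted from spot medians, outlier spots were left out and log2 ratios of Cy5 over Cy3 were centred on the array median. Spots of a probe were averaged, and the probe of highest mean Cy3 signal over the 4 arrays stood for its gene. A gene was counted as lower only with Cy3 well above background and as higher only with Cy5 well above background. A signal not well above background was raised to the lowest one that was (7.5 in Cy5 and 25.5 in Cy3 on this array) if it lay below it. Its ratio is then a bound. Other signals not well above background were kept as they were. Genes were named through accessions, symbols and older symbols in the RefSeq GRCh38.p14 table, which gave a name to 17519 of 30988 entries. Array positions were not used because their genome build was not given in the sources used here.

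The genes named, which had to have a symbol in the reference, were the 12 largest falls and rises in both channels, the 8 per direction with the largest change by the probe of least change, the 10 lowest and highest against miR-489, reported targets, and the members and extremes of 47 gene lists. Members and lists were chosen with earlier results of these data known. Alternatives were normexp with an offset of 50, no background subtraction, mean signals, loess with a span of 0.3, total signal scaling, the software's ratios, other filters and other probes. Some genes and the list built on 1 of them are not reported here. Scripts were tested on simulated data. Work used Python 3.11.15, pandas 2.3.3, numpy 2.4.6, matplotlib 3.10.9, R 4.3.3, data.table (1.17.8) and limma 3.58.1. Precision is limited by the number of arrays.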

Additional observations from a re-analysis of the deposited data

Results flagged for a closer look

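The 249 genes followed were those of the naming rule, with TIMM8B, TAX1BP1, LGMN and SBDS, which were named after their values had been seen. Of the 249, 3 genes measured in both channels on the HSC3 and FaDu miR-504 arrays had ratios at least 2-fold apart on opposite sides of 0. Genes without both channels well above background in FaDu cells, such as IL32 and SMAD4, were left out of this count. The medians of several gene lists also lay on opposite sides of 0, among them RAS-ERK output (0.41 in HSC3 and −0.06 in FaDu cells). Among the lists that met the size limit given above, the interferon-stimulated list had the largest such distance, which was less than 2-fold. Each line had 1 array and none of these differences was tested. IFIT1, an interferon-induced antiviral gene, was at −0.98 in HSC3 and 0.35 in FaDu cells, a difference of −1.33. The interferon-stimulated list as a whole had medians of −0.20 and 0.50, a difference of −0.70. MMP3 was at 1.18 and −0.57, a difference of 1.75. CD14, a monocyte receptor that was among the leukocyte markers, was at −0.60 and 0.48, a difference of −1.08. The HSC3 value of CD14 came from dim signals of 39 and 43.5, and was −0.28 with normexp and −0.06 with loess.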

How the results depend on the processing

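The counts of lower, higher and lower-than-miR-489 genes were 898, 367 and 108. No background subtraction gave 280 lower and 48 below miR-489, and normexp 295 and 49. Normexp with loess gave 421, 139 and 37. Total signal scaling, which moved the median of all genes from −0.05 to −0.24, gave 1541 lower and 160 higher. The ratios of the scanner software and the deposited value table each gave 594 higher. Without a filter on dim probes 12275 were lower and 964 below miR-489, and above the median signal 462 were lower. The next brightest probe, which fewer genes have, gave 152 lower of 4517 genes, 80 higher of 4889 genes and 38 below miR-489. Counts at 1.5-fold were 2720, 1891 and 612, and at 4-fold 89, 4 and 1. Lower genes made up 90.6% of changed genes with total signal scaling, 59.2% with the software's ratios and 42.2% without background subtraction.

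The ribosomal protein median turned to −0.0567 with loess, −0.0894 with normexp and loess, and −0.14 with the software's ratios and the deposited table. By the next brightest probe the medians of glycolysis (−0.30), RAS-ERK output (−0.20), squamous differentiation (−0.33), integrins and laminin-332 (−0.16) and 14-3-3 proteins (−0.0177) turned, as did BAX (0.57), BBC3 (0.99), FRMD6 (−0.0483), GCLC (0.30), MRPL2 (−0.61), PCGF3 (0.62), PTPN11 (0.29) and YWHAE (−0.45). As the mean of its probes, the log2 ratio of YWHAE was −0.0644. The causes were not tested. Of 1038 values of the 84 named genes beyond 2-fold under these alternatives, 897 kept their direction and stayed beyond 2-fold. The other filters could not change a value, and the deposited table repeats the software's ratios, so part of this agreement was fixed in advance. With 1 array per condition no array could be left out. No paired analysis was possible because the labels give no replicates.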

Other observations

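Interferon-stimulated genes (25 measured) had a median of −0.20 in HSC3 cells after miR-504, but 0.13 with loess, and 0.07 after miR-489. XAF1, a proapoptotic interferon target, was lower at −1.19 from dim signals of 27.5 and 46. IRF7, a transcription factor of the interferon response, was higher at 1.19 (8597 and 2756), as was IFI6 at 1.34 (1408 and 408.5). The cause was not tested.

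Genes that differed most between the lines after miR-504 were taken by that difference, so their values are a description. OASL, an antiviral gene, was at −0.25 in HSC3 and 1.39 in FaDu cells, and TNFSF10, the death ligand TRAIL, at 0.46 and 1.71. VIM, vimentin, was at 0.49 in HSC3 cells and −1.02 in FaDu cells. AGR2, a disulphide isomerase of secretory cells, was at 1.42 and −0.01. LCE3A, of the cornified envelope, was at 0.59 and −1.22. In all, 48 genes were at least 2-fold below and 54 at least 2-fold above their FaDu value.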
